A study of Mus musculus with 15 samples.

Results

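The genes described here carry the symbols of nuclear-encoded subunits of the mitochondrial respiratory chain and ATP synthase. Of 25080 symbols listed in the deposited tables, 86 matched the naming patterns of these subunits: 39 of complex I (Nduf genes), 4 of complex II (Sdh genes), 8 of complex III (Uqcr genes), 18 of complex IV (Cox genes of families 4 to 8) and 17 of complex V (Atp5 genes). Of the 86, Ndufb4c and Ndufa11b are annotated as processed pseudogenes and are counted with complex I by symbol. A total of 83 of the 86 reached at least 1 TPM in at least 3 libraries and were tested, Ndufb4c among them.

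Oxidative phosphorylation couples the oxidation of nutrients to ATP synthesis in the inner mitochondrial membrane. Complexes I and II pass electrons from NADH and succinate to ubiquinone, complex III passes them on to cytochrome c, and complex IV reduces oxygen. Complexes I, III and IV pump protons, and complex V uses the returning protons to make ATP. Neurons draw most of their ATP from this pathway. The mitochondrial genome encodes cytochrome b of complex III, the catalytic core of complex IV and some subunits of complexes I and V, which were not analysed here. The nuclear genes supply all of complex II, other catalytic subunits of complexes I, III and V, and many small accessory subunits.

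RNA came from the microdissected whole thalamus of mice of 2 to 4 months, without sorting of cells, and was depleted of ribosomal RNA before stranded sequencing. Maged1 is an X-linked gene. In the conditional knockout (cKO) mice, Cre driven by the Vglut2 promoter deletes a floxed Maged1 allele in glutamatergic Vglut2 neurons, and other thalamic cells are not targeted. The titles call the controls Maged1 WT, whereas the genotype tag of most of them reads Maged1 Loxp. The study's methods describe controls of such crosses as floxed littermates but name WT for the RNA samples, so whether the controls carried the floxed allele is not settled. After 3 days of saline habituation, mice received an intraperitoneal injection of cocaine at 20 mg/kg or of saline on each of 5 days. The analysis used 14 libraries: 4 labelled control saline, 4 labelled cKO saline, 4 labelled control cocaine and 2 labelled cKO cocaine. In bulk tissue, fewer cells of a type and less RNA per cell cannot be told apart.

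Maged1 itself went against the cocaine labels. On the scaled TPM defined below it ranged over 149.9 to 167 with saline in control mice and over 64.6 to 77.4 in their cKO counterparts, but over 58.5 to 87.7 in the libraries labelled control cocaine and at 154 and 174 in those labelled cKO cocaine. The genotype tag of 4 saline libraries also differs from their title, and in these 4 Maged1 followed the title. It was at 149.9 and 151 in control saline 3 and 4, tagged cKO, and at 77.4 and 76.6 in cKO saline 1 and 2, tagged as control. The comparison that leads here therefore averages the cocaine effect over both labelled genotypes, since that average stays the same if the labels of the cocaine groups are exchanged, whereas every contrast of genotypes rests on the labels. The study's methods also count more cocaine than saline samples, while the labels give more saline samples, and an exchange of treatment labels would turn every cocaine direction given here. The 10 thalamus marker genes summed to 525 to 785 scaled TPM in all libraries. Markers of neighbouring tissue varied: the 10 ependymal and cilia markers summed to 7.62 in cKO saline 1 and 8.18 in labelled control cocaine 4 against 25.9 to 61.5 in the other 12 libraries, the 8 choroid plexus markers reached 1468 in control saline 1 against 5.18 to 58.5 elsewhere, and the 12 hypothalamus markers ran from 10.5 to 518. TPM keep no record of sequencing depth, so the counting error behind each value is unknown.

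Levels below are TPM divided by a trimmed-mean (TMM) factor per library, which sets the bulk of genes equal between libraries. Differences are log2 fold changes of the scaled TPM plus 0.5, and a gene is called at a Benjamini-Hochberg adjusted p under 0.05 over the 13471 genes tested with limma. The scaling matters: with the TPM as deposited the median of all tested genes lay at -0.34 (log2) in the averaged cocaine contrast, against 0.0076 after TMM scaling. Every rise and fall below is thus relative to the median gene.

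Before the values, the promoter sequences show what the genes share that the naming rule did not use. Nuclear respiratory factor 1 (NRF1) is a transcription factor known for binding the promoters of many respiratory chain genes, and YY1 and the ETS factor GABP are known to bind others. RefSeq promoter sequences (250 bases before to 50 after the start, GRCm38.p6) were matched for 68 of the 86 genes. The NRF1 letters (GCGC, any base, then TGCGC) occurred on either strand in 17 of them (25.0%), compared with 5.19% of 27025 genes with such a sequence and 11.2% of 10537 tested genes. The YY1 letters AAGATGGCG occurred in 7 (10.3%), compared with 1.64% and 3.45%. The ETS letters CCGGAAGT occurred in 5 (7.35%), compared with 4.31% and 8.66%, and the GC box GGGCGG in 28 (41.2%), compared with 38.2% and 68.6%. Both strands were searched, a palindromic match was taken as 1 site, and matches of different motifs were allowed to overlap. Such a match is a description of letters, not of binding.

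A set of 4 promoters is printed because it pairs the same motif with opposite responses to cocaine: Atp5k rose and Atp5g3 fell, both with an NRF1 match, and Atp5j2 rose and Ndufc1 fell, both with a YY1 match. Each runs 5′ to 3′ on the gene's own strand, and capitals mark the motif match.
Atp5k (chr5:108434350-108434649, minus strand): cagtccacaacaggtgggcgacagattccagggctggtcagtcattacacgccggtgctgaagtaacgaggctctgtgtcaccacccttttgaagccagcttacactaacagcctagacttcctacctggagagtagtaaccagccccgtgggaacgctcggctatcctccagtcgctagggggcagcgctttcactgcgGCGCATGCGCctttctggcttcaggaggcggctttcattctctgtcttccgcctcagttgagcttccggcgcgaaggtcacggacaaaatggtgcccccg
Atp5g3 (chr2:73911277-73911576, minus strand): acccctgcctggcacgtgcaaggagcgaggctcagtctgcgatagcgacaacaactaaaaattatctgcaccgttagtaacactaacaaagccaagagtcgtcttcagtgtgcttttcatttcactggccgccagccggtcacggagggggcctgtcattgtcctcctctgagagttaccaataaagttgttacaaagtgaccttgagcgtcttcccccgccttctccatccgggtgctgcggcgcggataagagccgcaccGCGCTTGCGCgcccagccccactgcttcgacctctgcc
Atp5j2 (chr5:145191492-145191791, minus strand): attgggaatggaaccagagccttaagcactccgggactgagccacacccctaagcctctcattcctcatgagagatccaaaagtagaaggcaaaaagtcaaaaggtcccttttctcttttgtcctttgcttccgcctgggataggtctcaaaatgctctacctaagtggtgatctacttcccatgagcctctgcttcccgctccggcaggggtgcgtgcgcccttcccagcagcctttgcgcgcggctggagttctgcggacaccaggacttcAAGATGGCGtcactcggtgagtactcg
Ndufc1 (chr3:51408906-51409205, minus strand): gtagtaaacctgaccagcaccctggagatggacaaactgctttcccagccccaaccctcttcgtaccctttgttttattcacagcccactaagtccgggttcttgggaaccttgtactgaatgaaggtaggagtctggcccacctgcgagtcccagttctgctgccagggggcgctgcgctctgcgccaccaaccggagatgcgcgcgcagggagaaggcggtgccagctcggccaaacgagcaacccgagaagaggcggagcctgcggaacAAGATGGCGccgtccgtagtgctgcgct

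The match lies upstream of the start in Atp5k and just after it in the other 3, and none of the other motifs searched occurs in these windows. Among the genes with a promoter sequence, an NRF1 match was present in 6 of 21 called higher with cocaine and in 2 of 16 called lower. A YY1 match was present in 2 of 21 and in 3 of 16. Neither count was tested.

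In control saline the subunit genes were abundant. Their mean TPM as deposited had a median of 79.4 over the 86 genes, compared with 7.90 over all tested genes, and 31 genes reached 100 TPM. The highest were Atp5b, the catalytic beta subunit of the ATP synthase, at 439.7 ± 14.7 TPM (SD, n = 4), Cox4i1, the common isoform of complex IV subunit 4, at 369 ± 10.6, and Atp5md, a small membrane subunit of the ATP synthase, at 355 ± 12.9. Only 9 genes had a mean under 5 TPM. The lowest tested were Cox8b at 0.903 ± 0.698, Cox4i2 at 0.925 ± 0.282 and Ndufa4l2 at 1.24 ± 0.405 TPM (SD, n = 4), all isoforms known from particular tissues or conditions. The 3 genes below the minimum were Ndufa11b, at 0 to 1.42 TPM, Cox7b2, at 0.123 to 1.14 TPM in cocaine and 0.133 to 0.840 in saline libraries, and Cox8c, listed at 0 in all 14.

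With cocaine, subunit genes of the same complex moved in opposite directions. Averaged over the labelled genotypes, 23 of the 83 were called higher and 20 lower relative to the median gene, compared with 17.8% higher and 15.3% lower of all 13471 genes (27.7% and 24.1% of the subunit genes). Their median log2 fold change was 0.038, next to 0.0076 for all genes. With the TPM as deposited the picture becomes a common fall that the subunit genes share with all genes. Of the 83, 2 were called higher and 67 lower, compared with 120 and 10661 of all 13471 genes. Their median was -0.33, next to -0.34 for all genes. Measured against that shift, all 23 called higher lay above it and all 20 called lower lay below it. The scaling divides all genes of a library by the same factor, so this order is largely set in advance and is no further support. The subunit genes are more abundant than most, and their median standard error was 0.045 on the log2 scale compared with 0.060 for all genes. The part of abundance in the share of calls was not tested.

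Changes were small for most genes. The median absolute log2 fold change was 0.15, compared with 0.12 over all genes. With a minimum log2 fold change of 0.5 added, 2 were called higher (Atp5k and Cox6a2) and 2 lower (Cox8b and Ndufb4c), compared with 1.05% higher and 1.02% lower of all genes. With the same minimum the labelled control had 3 higher and 1 lower (1.43% and 1.66% of all genes) and the labelled cKO 3 and 0 (1.97% and 1.17%). All 6 cocaine libraries lay above all 8 saline libraries in 14 of the 83 genes and below them in 9, compared with 5.95% and 5% of all genes.

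**Figure D1:**
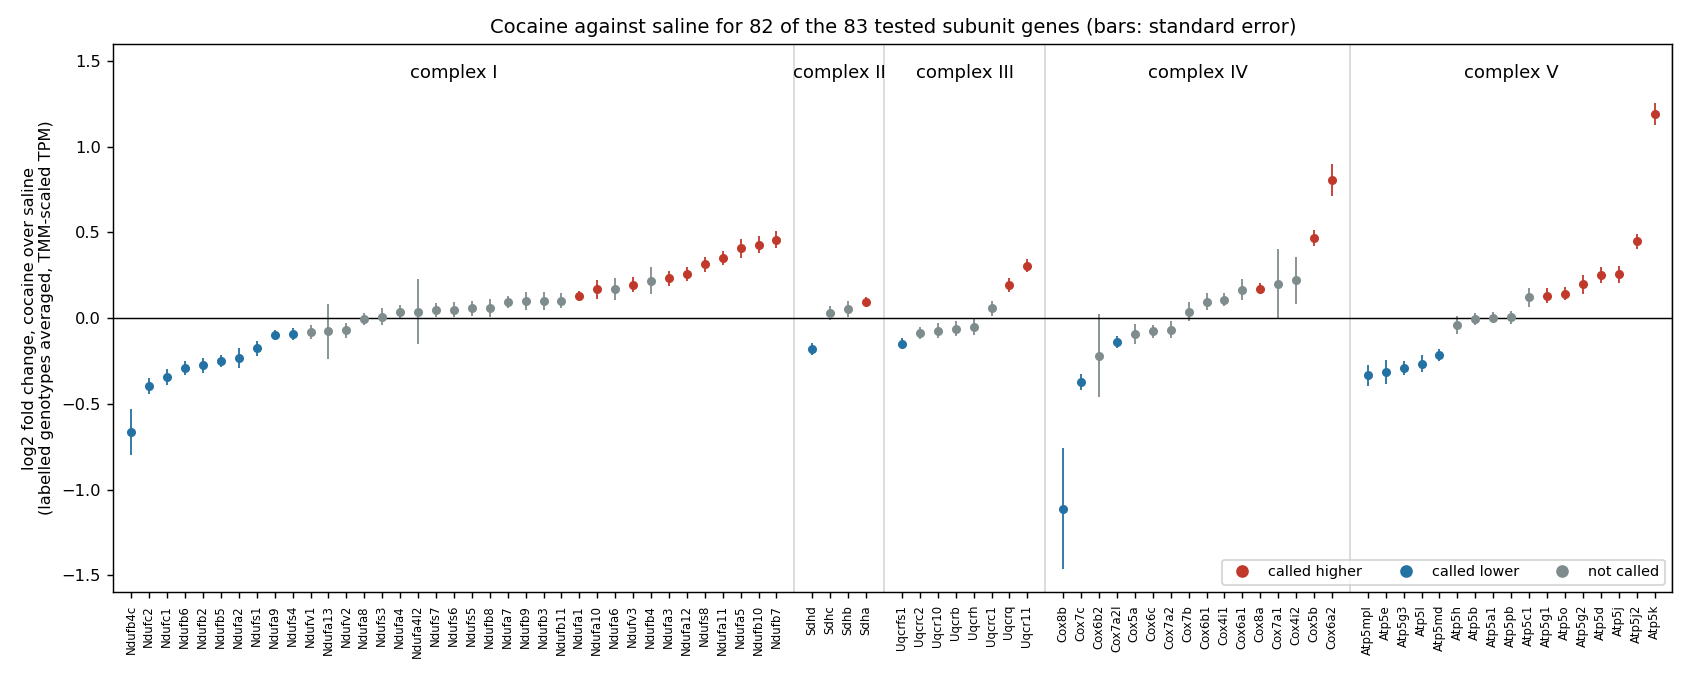
Log2 fold change of cocaine over saline (vertical axis, TMM-scaled TPM, labelled genotypes averaged) for 82 of the 83 tested subunit genes, grouped by complex and ordered by size, where points are estimates, bars are standard errors, and colours mark genes called higher, called lower or not called. Every complex holds genes on both sides of 0, from -1.11 (Cox8b) to 1.19 (Atp5k), on the TMM scale, whereas with TPM as deposited only 7 of the 23 genes called higher stay above 0.

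Complex V held the largest rise of the 83 genes, in Atp5k. It had 7 of 17 genes called higher and 5 lower (41.2% and 29.4%), compared with 17.8% and 15.3% of all genes, a difference that was not tested. The split ran through its small membrane subunits, of which Atp5k and Atp5j2 rose while Atp5l, Atp5md and Atp5mpl fell, on the TMM scale (with TPM as deposited, Atp5k and Atp5j2 stay above 0 at 0.81 and 0.066).

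Atp5k encodes subunit e, which with subunits f and g sits where ATP synthase monomers join into dimers. It lies at chr5:108433244-108434448 (GRCm38, minus strand). Its scaled TPM was 75.2, 79.4, 75.0 and 71.6 in control saline, 83.9, 89.4, 80.3 and 78.8 in cKO saline, 158, 191, 209.9 and 188 in labelled control cocaine and 159.5 and 194 in labelled cKO cocaine. Every cocaine library stood above every saline library, with no value between 89.4 and 158. The averaged log2 fold change was 1.19 ± 0.065 (SE, adjusted p = 2.4e-07, limma), a 2.28-fold rise. An exact two-sided permutation test of the 6 cocaine against the 8 saline libraries gave p = 0.000333, the smallest these numbers allow. The rise was 1.30 ± 0.082 (SE, adjusted p = 1.67e-06, limma) in the labelled control and 1.08 ± 0.10 (SE, adjusted p = 9.1e-05, limma) in the labelled cKO. The Atp5k transcript is short (371 nucleotides) and shares 20.5% of its 31-base words with other genes, a pseudogene copy, Atp5k-ps2, among them.

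Atp5j2, subunit f, had scaled TPM of 138, 147, 129 and 146 in control saline, 161, 151, 145 and 138 in cKO saline, 182, 204, 201 and 197 in labelled control cocaine and 193 and 203 in labelled cKO cocaine. The cocaine libraries again stood above all saline libraries, and the averaged log2 fold change was 0.45 ± 0.044 (SE, adjusted p = 2.07e-05, limma). Its partner Atp5l, subunit g, moved the other way, with 147 to 171 scaled TPM in saline and 121 to 146 in cocaine libraries, with no overlap and a log2 fold change of -0.27 ± 0.049 (SE, adjusted p = 0.00134, limma). The Atp5l transcript shares 69.6% of its 31-base words with other genes, so its level depends on how reads were split. Atp5md fell by 0.21 on the log2 scale and Atp5mpl by 0.33 (adjusted p = 0.000745 and 0.00124, limma), both with all cocaine libraries below all saline libraries. With the trends of length and GC content removed, Atp5md was at -0.068 (adjusted p = 0.272, limma) and is not called.

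The large subunits of the catalytic head of complex V were not called. Atp5a1 and Atp5b, the alpha and beta subunits, had log2 fold changes of 0.0028 and -0.0034 (standard error 0.031 and 0.036), and Atp5b ranged from 379 to 439.9 in the 8 saline libraries and 393 to 432 in the 6 cocaine libraries. Atp5c1, the gamma subunit of the rotor, was at 0.12 ± 0.055 (SE, adjusted p = 0.106, limma). The other rotor subunits of the head were called in opposite directions: Atp5d, delta, at 0.25 ± 0.046 (SE, adjusted p = 0.00122, limma) and Atp5e, epsilon, at -0.31 ± 0.067 (SE, adjusted p = 0.00349, limma). With the trends of length and GC content removed, Atp5d is not called. The 3 genes Atp5g1, Atp5g2 and Atp5g3 encode the same mature c subunit of the proton-driven ring, and they split too. Atp5g3, the most abundant, was at 183 to 208 in the 8 saline libraries and 144 to 176 in the 6 cocaine libraries and fell (log2 fold change -0.29 ± 0.040 SE, adjusted p = 0.000192, limma), while Atp5g1 and Atp5g2 rose by 0.13 and 0.20 (adjusted p = 0.0342 and 0.0157, limma). The Atp5g1 call is lost under several alternatives, including 9 of the fits without 1 library, and with TPM as deposited Atp5g1 and Atp5g2 lie below 0. With the trends of length and GC content removed, Atp5g2 was at 0.077 (adjusted p = 0.485, limma) and is not called. In the peripheral stalk Atp5o and Atp5j were called higher (0.14 and 0.26, but -0.24 and -0.13 with TPM as deposited) and Atp5h and Atp5pb were not called. The Atp5o call is lost with the trends of length and GC content removed.

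**Figure D2:**
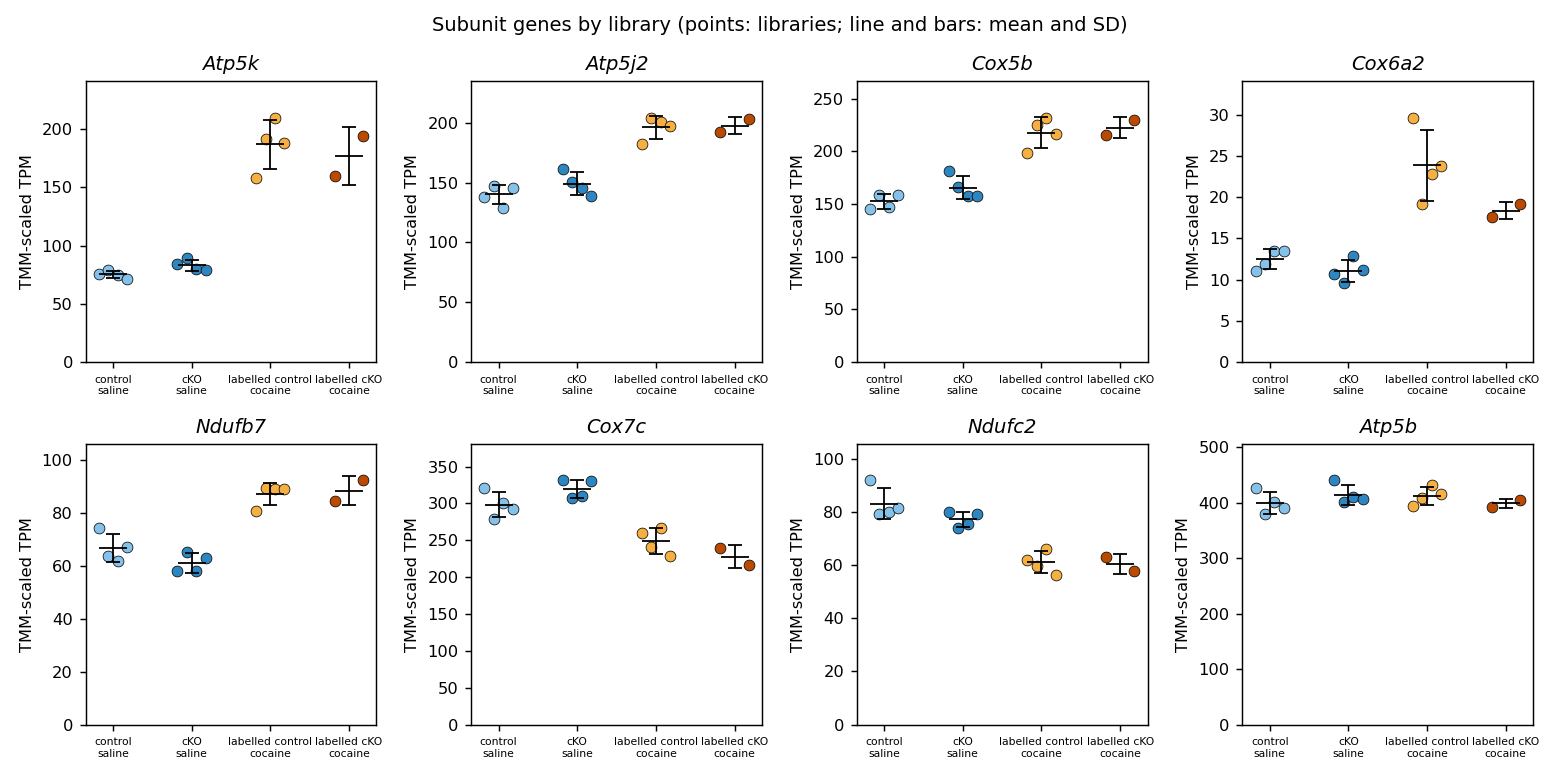
TMM-scaled TPM (vertical axis, starting at 0) of 8 subunit genes in each of the 14 libraries, by group, where points are libraries, the line and bars are the group mean and SD. Atp5k, Atp5j2, Cox5b, Cox6a2 and Ndufb7 stand higher in all 6 cocaine libraries than in all 8 saline libraries, Cox7c and Ndufc2 lower, and the groups of Atp5b overlap.

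Complex IV had 3 of 16 genes called higher and 3 lower (18.8% each), near the share among all genes. Cox5b, a matrix-facing subunit found in most tissues, lies at chr1:36691449-36693681 (GRCm38, plus strand). Its scaled TPM was 145, 159, 147 and 159 in control saline, 181, 166, 158 and 157 in cKO saline, 199, 225, 232 and 216 in labelled control cocaine and 215 and 229.8 in labelled cKO cocaine. The groups did not overlap by treatment, and the averaged log2 fold change was 0.47 ± 0.047 (SE, adjusted p = 2.04e-05, limma). Cox7c, a small membrane subunit at chr13:86044816-86046904, moved the other way, at 321, 279, 301 and 292 in control saline, 331, 307, 309 and 329.8 in cKO saline, 259.7, 241, 267 and 229 in labelled control cocaine and 239 and 217 in labelled cKO cocaine. All cocaine libraries stood below all saline libraries (log2 fold change -0.37 ± 0.046 SE, adjusted p = 8.7e-05, limma). Cox7c has the lowest GC content of the tested subunit genes (38.4%), and with the trends of length and GC content removed its log2 fold change was -0.15, still called.

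Of the isoform pairs of complex IV, the forms of most tissues changed little: Cox8a rose by 0.17 (adjusted p = 0.00174, limma), and Cox4i1, Cox6a1, Cox6b1 and Cox7a2 were not called (0.11, 0.17, 0.097 and -0.067). With TPM as deposited Cox8a lies below 0, and with the trends of length and GC content removed it was at 0.10 (adjusted p = 0.183, limma) and is not called. Cox6a2 (chr7:128205435-128206387), known as the heart and skeletal muscle isoform of subunit 6a, was called higher. Its scaled TPM was 11.0, 11.9, 13.4 and 13.5 in control saline, 10.6, 9.57, 12.8 and 11.2 in cKO saline, 29.7, 19.2, 22.8 and 23.8 in labelled control cocaine and 17.6 and 19.1 in labelled cKO cocaine. The cocaine libraries stood above all saline libraries, those labelled control cocaine highest, with a log2 fold change of 0.81 ± 0.093 (SE, adjusted p = 5.93e-05, limma). The 8 muscle marker genes summed to only 1.58 to 2.72 scaled TPM in all 14 libraries, and 1 of the 8 reached the minimum level for testing. The part of tissue content in the Cox6a2 rise was not tested. Cox6a2 overlaps Itgad on the opposite strand, which had a mean of 0.08 TPM. The other isoforms of restricted tissues, Cox4i2, Cox6b2 and Cox7a1, were not called (0.22, -0.22 and 0.20, with standard errors of 0.14, 0.24 and 0.20). Cox8b was called lower (-1.11 ± 0.35 SE, adjusted p = 0.028, limma), at 0 to 1.72 scaled TPM in saline and 0 to 0.460 in cocaine libraries, where 4 of 6 list it at 0. That call is lost without either labelled cKO cocaine library and without the pair of libraries lowest in ependymal markers. Cox7a2l, a factor that joins complexes III and IV into supercomplexes, fell by 0.14 (adjusted p = 0.0113, limma), and is not called without labelled cKO cocaine 2. Ndufa4, a complex IV subunit under a complex I name, and its paralog Ndufa4l2 were not called (both 0.037).

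Complex I had 10 of 38 genes called higher and 10 lower (26.3% each). Among the accessory subunits 9 of 28 were called higher and 8 lower (32.1% and 28.6%), compared with 17.8% and 15.3% of all genes, and their difference from the core subunits was not tested. Of the core subunits, which carry the flavin and the iron-sulfur clusters that conduct electrons, Ndufs8 was called higher (0.31 ± 0.043 SE, adjusted p = 0.000179, limma) and Ndufs1 lower (-0.18 ± 0.045 SE, adjusted p = 0.00913, limma), on the TMM scale, whereas with TPM as deposited Ndufs8 lies at -0.066. With the trends of length and GC content removed Ndufs1 is not called, and Ndufv1 is called lower at -0.18 (adjusted p = 0.00611, limma). Ndufs3, Ndufs7, Ndufv1 and Ndufv2 ranged from -0.080 to 0.048 and were not called.

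Among accessory subunits of complex I, Ndufb7 and Ndufb10, on the intermembrane side of the membrane arm, rose most. Ndufb7, at chr8:83566671-83571626 (GRCm38, plus strand), had scaled TPM of 74.3, 63.9, 62.0 and 67.1 in control saline, 58.0, 65.4, 58.0 and 62.9 in cKO saline, 80.8, 89.6, 89.1 and 89.1 in labelled control cocaine and 84.6 and 92.4 in labelled cKO cocaine. The cocaine libraries stood above all saline libraries, at a log2 fold change of 0.46 ± 0.049 (SE, adjusted p = 3.64e-05, limma). Ndufb10 was at 61.2 to 70.3 in the 8 saline libraries and 76.2 to 98.0 in the 6 cocaine libraries, a log2 fold change of 0.43 ± 0.051 (SE, adjusted p = 7.11e-05, limma). Ndufa5 and Ndufa11 also rose without overlap, by 0.41 and 0.35. Ndufc2, a membrane arm subunit at chr7:97400003-97407802, fell: its scaled TPM was 91.9, 79.2, 80.1 and 81.5 in control saline, 79.98, 74.1, 75.5 and 79.3 in cKO saline, 61.8, 59.8, 66.3 and 56.5 in labelled control cocaine and 63.1 and 57.9 in labelled cKO cocaine, with no overlap by treatment and a log2 fold change of -0.40 ± 0.046 (SE, adjusted p = 6.02e-05, limma). Ndufc1, Ndufb5 and Ndufb6 fell likewise without overlap, by 0.34, 0.25 and 0.29 on the log2 scale. Of the 4 risers, Ndufb7, Ndufb10 and Ndufa5 keep their sign with TPM as deposited and Ndufa11 does not (-0.019).

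The largest fall in complex I was in Ndufb4c, annotated as a processed pseudogene on chr15, whose transcript shares 100% of its 31-base words with Ndufb4. Its log2 fold change was -0.67 ± 0.13 (SE, adjusted p = 0.00223, limma), while Ndufb4 was at 0.22 ± 0.080 (SE, adjusted p = 0.0525, limma). Their summed scaled TPM was 97.9 to 124 in saline and 108 to 119 in cocaine libraries, which differed by 0.039 on the log2 scale (p = 0.478 in an exact permutation test, both sides). The level of Ndufb4c depends on how reads were divided between the copies. The part of that division in its call was not tested. Ndufa13, at 0.751 to 2.03 and 0.553 to 1.56 scaled TPM in saline and cocaine libraries one of the lowest tested, overlaps Yjefn3 on the same strand, and its level is uncertain.

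Complex II had 1 of 4 genes called higher and 1 lower, and complex III 2 of 8 and 1 (25% and 12.5%), close to the 17.8% and 15.3% of all genes. In complex II, Sdhd, a membrane anchor, fell (-0.18 ± 0.034 SE, adjusted p = 0.00166, limma) and Sdha, the flavoprotein that oxidises succinate, was called at 0.094 ± 0.031 (SE, adjusted p = 0.0351, limma), a call lost under most alternatives. Sdhb and Sdhc were not called (0.054 and 0.031). In complex III the small subunits Uqcr11 and Uqcrq were higher (0.31 ± 0.038 SE, adjusted p = 0.000102, limma, and 0.19 with adjusted p = 0.00246) and the Rieske iron-sulfur protein Uqcrfs1 lower (-0.15 ± 0.032 SE, adjusted p = 0.00332, limma). The core proteins Uqcrc1 and Uqcrc2 were not called (0.058 and -0.086). Uqcr11 ran from 105 to 114 in the 8 saline libraries and 123 to 157 in the 6 cocaine libraries. With TPM as deposited Sdha, Uqcr11 and Uqcrq lie below 0.

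Summed over the genes assigned to a complex by symbol, the saline and cocaine libraries overlapped on the TMM scale. These sums leave out the mitochondrially encoded subunits and Cyc1 of complex III. The complex I sum includes the pseudogene Ndufb4c, and Ndufa4 and Ndufa4l2, which belong with complex IV. The sum for complex I was 2474 to 2613 scaled TPM in saline and 2520.1 to 2691 in cocaine libraries, for complex IV 2093 to 2408 and 2249.8 to 2538, and for complex V 2521 to 2787 and 2602 to 2847. The ranges overlap in all 5 complexes, and the ratio of the cocaine to the saline mean was 1.03 to 1.05. By labelled genotype the means of 2 complexes moved in opposite directions, untested: complex III from 688 to 735 in the labelled control and from 699 to 675 in the labelled cKO, and complex IV from 2185 to 2389.9 and from 2288 to 2265. On the TPM as deposited the same ratio was 0.79 to 0.80, with every cocaine library below every saline library in each complex.

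**Figure D3:**
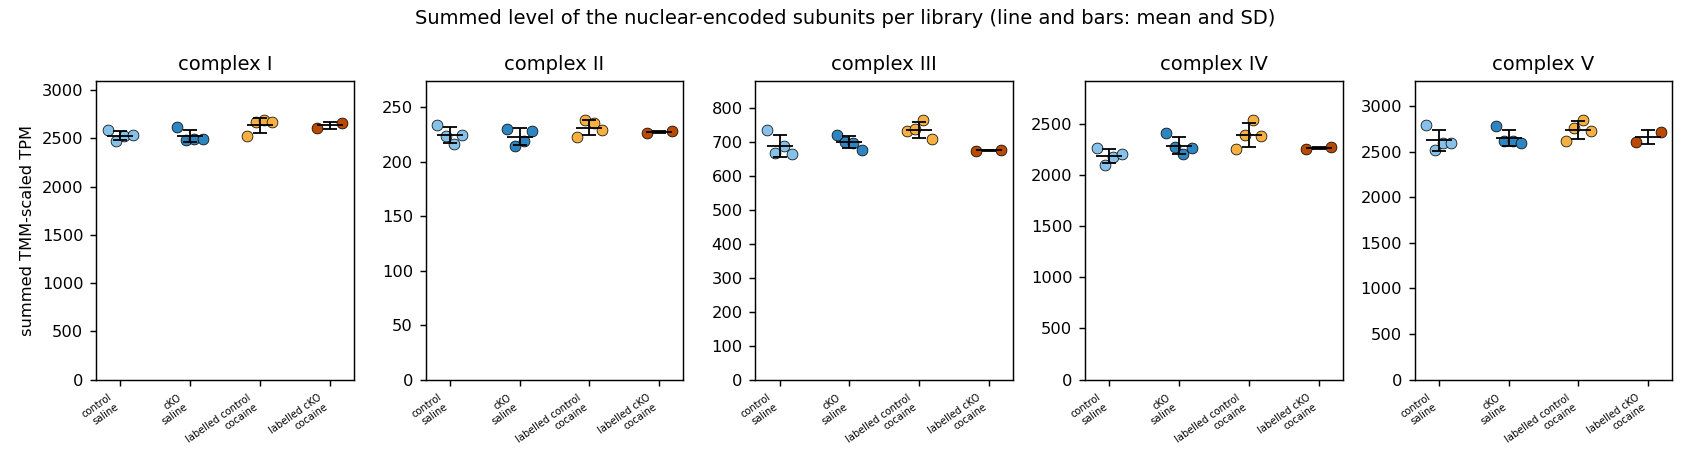
Summed TMM-scaled TPM of the genes assigned by symbol to each complex (vertical axis, starting at 0, a scale per complex) in the 14 libraries by group. Points are libraries, and the line and bars are the group mean and SD. The saline and cocaine libraries overlap in every complex on this scale, whereas with TPM as deposited the cocaine libraries lie lower.

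The cocaine effect had the same sign in both labelled genotypes for 64 of the 83 genes (77.1%, compared with 66.0% of all genes). In the labelled control 22 of 83 genes were called higher and 12 lower, compared with 14.2% and 10.2% of all genes. In the labelled cKO 14 were higher and 18 lower, compared with 10.2% and 9.96%, and without labelled cKO cocaine 2 these counts fall to 6 and 3. In both, 12 genes were called higher and 10 lower (5.45% and 4.46% of all genes), and 0 were called in opposite directions. These 2 contrasts share no library. Over the 83 genes their log2 fold changes had a Pearson r of 0.84 and a Spearman rho of 0.81 (r = 0.77 without Atp5k and Cox8b), compared with 0.33 and 0.38 over all tested genes and 0.38 and 0.50 over the 8723 with at least 5 TPM in control saline. Genes are not independent replicates, all points of a contrast share its libraries and scaling factors, and both contrasts share the tendency with GC content given below. The sets were not matched in abundance: the median in control saline was 79.4 TPM for the subunit genes and 7.90 for all tested genes. The part of abundance in these correlations was not tested. Beside these contrasts, the medians of the ependymal list were -0.79 and 0.98, and the hypothalamus list lay at -1.61 in the labelled control and 0.0080 in the labelled cKO. The choroid plexus list lay at -1.12 and 0.064, the oligodendrocyte list at 0.28 (2 of 10 called higher) and -0.18 (0 called), and the neuron list at 0.24 (5 of 11 called higher) and -0.031 (2 called higher). The part of these lists in the subunit changes was not tested. Without cKO saline 1 and labelled control cocaine 4 the counts were 18 and 10 in the labelled control and 14 and 12 in the labelled cKO.

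**Figure D4:**
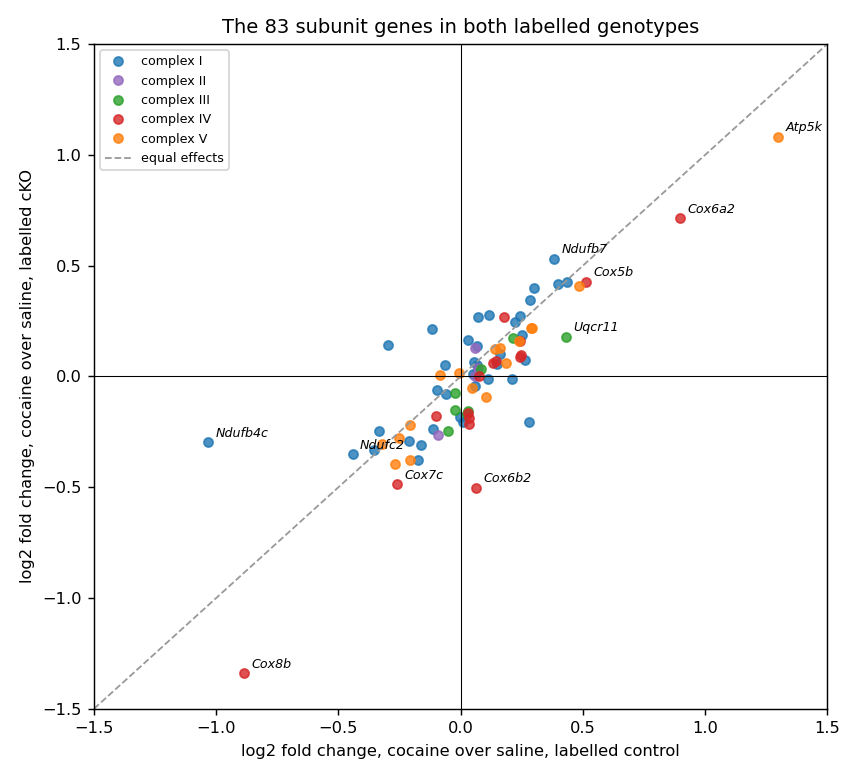
Log2 fold change of cocaine over saline in the labelled control (horizontal axis) against that in the labelled cKO (vertical axis) for the 83 subunit genes, coloured by complex, with a dashed line at equal effects. The points follow the line from Cox8b at -0.89 and -1.34 to Atp5k at 1.30 and 1.08 on the TMM scale, and the medians move to -0.31 and -0.38 with TPM as deposited.

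Between genotypes no subunit gene was called. After saline, 0 of 83 genes were called in either direction with limma (9 at an unadjusted p under 0.05), compared with 0.0668% higher and 0.111% lower of all genes (2256 at an unadjusted p under 0.05). After cocaine 0 were called (12 unadjusted), compared with 0.0223% and 0.0371% (1597 unadjusted). For the interaction 0 were called (14 unadjusted), compared with 0.616% and 0.668% (2437 unadjusted). The log2 differences ranged from -0.54 to 0.25 after saline (cKO minus control) and from -0.82 to 0.45 after cocaine (labelled cKO minus labelled control). Since Maged1 went against the cocaine labels, the signs after cocaine and of the interaction hold for the labels only.

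The gene nearest a call was Ndufs7, a core subunit of complex I that holds an iron-sulfur cluster next to the ubiquinone site. Its scaled TPM was 84.5, 77.9, 75.0 and 75.0 in control saline, 66.6, 70.9, 63.9 and 74.8 in cKO saline, 71.4, 73.6, 73.7 and 68.7 in labelled control cocaine and 78.1 and 82.0 in labelled cKO cocaine. Within saline the cKO libraries lay below the control libraries, and within cocaine the libraries labelled cKO lay above those labelled control. The differences were -0.18 ± 0.053 (SE, adjusted p = 0.137, limma) after saline and 0.16 after cocaine, and the interaction was 0.33 ± 0.084 (SE, adjusted p = 0.0698, limma). The order of the groups is that of Maged1, which also went against the cocaine labels. Ndufs7 was named for its small adjusted p in these contrasts, which favours genes whose genotype order turns between treatments. The shared order is thus no further support, and a relation to Maged1 was not tested. After saline Cox6c (0.16 ± 0.050 SE, adjusted p = 0.141, limma) and Ndufa8 (-0.13 ± 0.043 SE, adjusted p = 0.159, limma) were next. After cocaine Ndufa9 (-0.17 ± 0.045 SE, adjusted p = 0.222, limma), Uqcrfs1 (-0.19) and Uqcr11 (-0.20) were lowest in adjusted p. For the interaction Ndufa9 (-0.21 ± 0.058 SE, adjusted p = 0.0838, limma) and Uqcr11 (-0.25) followed Ndufs7.

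Part of the cocaine pattern ran with base composition. The longest coding transcripts of the genes called higher had a median GC content of 53.8%, those called lower 48.5% and the rest 52.4%. Over the 83 genes GC content and the averaged log2 fold change had a Pearson r of 0.29 and a Spearman rho of 0.41, compared with 0.32 and 0.52 over 13333 tested genes, as a description in which the genes share libraries. Transcript length showed no such relation (r = -0.020). With the trends of length and GC content removed in each library, r was 0.044, a fall that the removal itself largely sets. In that fit, 16 of the 23 genes called higher and 16 of the 20 called lower were still called in the same direction. Of the 43, Ndufs4, named after its values were seen, changed sign (-0.092 to 0.040). A further 3 genes became called, Ndufv1 lower and Ndufa4 and Ndufb3 higher (-0.18, 0.19 and 0.22). Atp5k, Cox5b, Cox6a2, Atp5j2 and Ndufb7 remained called, at 1.19, 0.48, 0.77, 0.44 and 0.37.

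**Figure D5:**
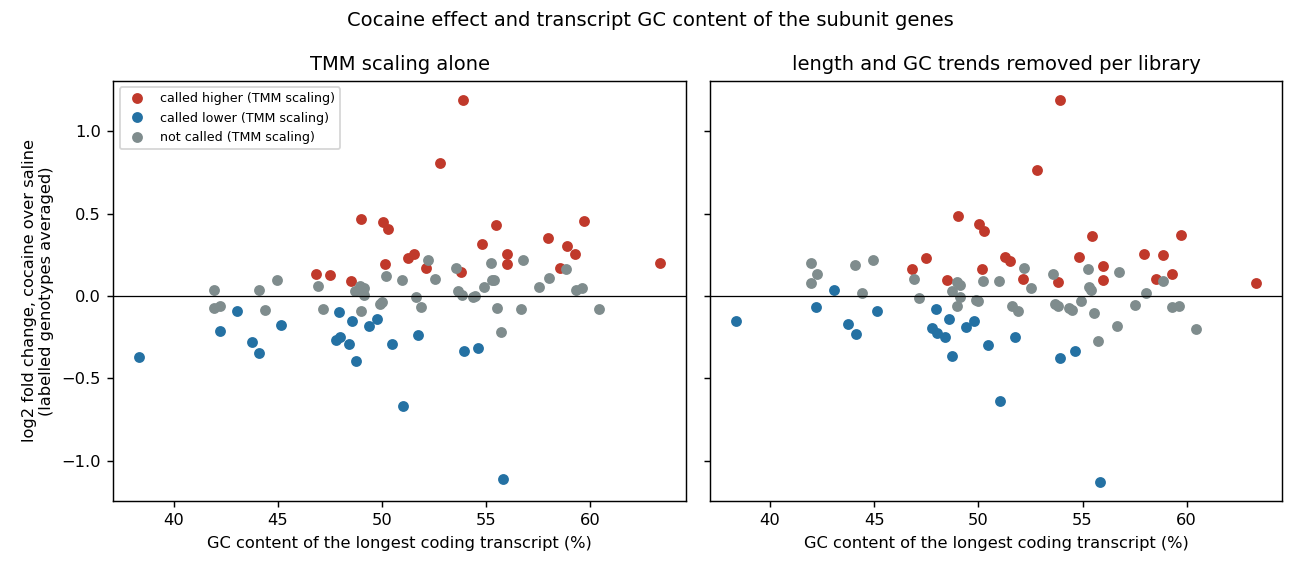
GC content of the longest coding transcript (horizontal axis, %) and log2 fold change of cocaine over saline (vertical axis, labelled genotypes averaged) of the 83 subunit genes, with TMM scaling alone (left) and after removal of length and GC trends per library (right), where points are genes and colours mark the calls under TMM scaling. On the left the genes called higher lie further to the right (median 53.8%) than those called lower (48.5%). On the right the slope is nearly gone (r = 0.044), which the removal itself largely sets, while Atp5k and Cox6a2 stay high.

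The counts of the neighbouring lists are read against the 17.8% higher and 15.3% lower of all genes. Of 19 tested electron carriers, ubiquinone synthesis enzymes and transporters, 7 were called higher and 3 lower in the averaged cocaine contrast (median 0.085). The largest was Atpif1, the inhibitor that binds the catalytic head of the ATP synthase, with scaled TPM of 24.4, 25.9, 23.5 and 25.3 in control saline, 24.4, 24.5, 25.5 and 22.0 in cKO saline, 35.4, 38.1, 37.2 and 37.5 in labelled control cocaine and 42.2 and 40.2 in labelled cKO cocaine. All cocaine libraries stood above all saline libraries, at a log2 fold change of 0.67 ± 0.038 (SE, adjusted p = 3.2e-07, limma). Coq7, a hydroxylase of ubiquinone synthesis, rose by 0.36 ± 0.039 (SE, adjusted p = 3.69e-05, limma), and Cyc1, the cytochrome c1 subunit of complex III, by 0.26 ± 0.035 (SE, adjusted p = 0.000181, limma). Pdss1 and Pdss2, which build the side chain of ubiquinone, and Coq3, a methyltransferase of its ring, were lower (-0.32, -0.18 and -0.24).

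Of 50 tested assembly factors, 7 were called higher and 9 lower (median -0.038), shares near those of all genes. Called members included Ndufaf2 for complex I (0.52 ± 0.11 SE, adjusted p = 0.00311, limma), Cox20 and Cox17 for complex IV (0.38 and 0.30), and on the lower side Acad9 and Tmem126b for complex I (-0.26 and -0.29) and Tmem70 for complex V (-0.12). Of 22 regulators of mitochondrial gene expression, 3 were higher and 4 lower (median 0.025), again near the shares of all genes. Pprc1, a coactivator related to PGC-1, was higher (0.24), Polrmt, the mitochondrial RNA polymerase, was higher (0.17) and Tfam, which packages mitochondrial DNA, was lower (-0.21). Of 19 TCA cycle enzymes 6 were higher and 3 lower (median 0.0031), with Mdh2 (0.27) on one side and Dlat (-0.23) on the other. Protein subunits of the mitochondrial ribosome were called higher in 23 of 78 and lower in 6 (median 0.070), and those of the cytosolic ribosome in 35 and 12 of 86 (median 0.081). All these directions are on the TMM scale, relative to the median gene.

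Marker lists of cell types held 0 to 3 called genes each in a direction in the averaged cocaine contrast, on the TMM scale. Of 11 neuron markers 3 were called higher and 0 lower, of 10 thalamus markers 3 and 0, of 8 astrocyte markers 2 and 1, of 10 oligodendrocyte markers 0 and 0, of 9 microglia markers 1 and 1, of 8 endothelial markers 0 and 2, of 9 pericyte and smooth muscle markers 1 and 0, of 10 ependymal and cilia markers 0 and 0, of 4 choroid plexus markers 0 and 0, of 9 hypothalamus markers 0 and 2, and of 1 muscle marker 0 and 0. Their medians lay between -0.62 (hypothalamus) and 0.22 (thalamus). The part of tissue content in the subunit changes was not tested. Without the libraries lowest in ependymal markers, 21 of the 23 genes called higher and 17 of the 20 called lower remained called in the same direction. That fit keeps all other libraries, with their spread in the choroid plexus and hypothalamus lists, so it is no test of tissue content.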

How the data were processed

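RNA-seq of mouse thalamus was analysed from 14 libraries. The authors aligned reads with STAR (2.5.3a) to GRCm38, quantified transcripts with Salmon and summarised them per gene with tximport, which scales by length, per the study's methods. They deposited TPM in a separate table per library, and 2 of the 14 tables use a decimal comma. No read counts were used, so depth is unknown. The study's methods call the samples independent, and p-values measure the spread between them. Mitochondrially encoded subunits and 1 further labelled cKO cocaine sample were not analysed here.

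Genes reaching 1 TPM in 3 or more libraries were kept (13471 of 25080). TPM were scaled by unweighted TMM factors (trims of 30% and 5%), put on the log2 scale with a pseudocount of 0.5, and fitted with limma 3.58.1 in R 4.3.3 as 4 group means with an intensity trend. P-values were adjusted by the Benjamini-Hochberg method over all tested genes. Single values were compared by exact permutation tests. The fit was tested on simulated data. GC content and length came from GENCODE transcripts on GRCm38 and promoters from RefSeq. Genes named in the text were the core and catalytic subunits and isoform families, the 2 largest rises and falls in each complex, the 3 smallest adjusted p in each contrast, and the 3 highest and 3 lowest levels in control saline. Others were named after their values were seen. Some genes that the rule names are not reported here. The subunit genes, their partner, assembly, regulator, TCA cycle, ribosome and cell type lists were chosen with earlier results of these data known. Alternatives covered scaling, pseudocount, filter, trend, blocking, genotype tags, trends of length and GC content, a fold minimum and leaving out libraries.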

Additional observations from a re-analysis of the deposited data

Results flagged for a closer look

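In 14 of 168 sets of 4 libraries examined, 1 library stood far from the other 3, measured as its gap to the nearest library divided by the range of the group. Chance flags about 1 in 20 sets, and the pair labelled cKO cocaine was too small to examine.

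Control saline 1, the library with the high choroid plexus sum, was the library apart for 5 genes' values, and these lay on both sides. It was highest for Atp5a1 (230.9 scaled TPM against 212 to 215, gap over range 0.85), Atp5g3 (208 against 183 to 185, 0.914) and Ndufa8 (69.9 against 63.1 to 63.7, 0.904). It was lowest for Atp5c1 (56.3 against 67.9 to 70.4, 0.837) and Atp5g2 (51.1 against 65.4 to 66.7, 0.93).

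Labelled control cocaine 1 was lowest for Ndufs8 (51.9 scaled TPM against 59.5 to 60.0, gap over range 0.937), Ndufb7 (80.8 against 89.1 to 89.6, 0.941), Atp5g1 (97.4 against 101 to 102, 0.86) and the complex I sum (2520.1 against 2665 to 2691, 0.847). In cKO saline, library 3 was lowest for Atp5g1 (80.3 against 87.1 to 88.0, 0.894) and highest for Ndufb10 (70.3 against 63.4 to 64.1, 0.887).

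The library cKO saline 1, lowest of its group in ependymal markers, had the highest sums of complex I (2613 scaled TPM against 2480.4 to 2498, gap over range 0.87), complex V (2778 against 2589.6 to 2616, 0.859) and all subunits (8750.0 against 8227 to 8283, 0.894). The part of tissue content in these values was not tested.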

How the results depend on the processing

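With TPM as deposited, the averaged cocaine contrast had 2 subunit genes called higher and 67 lower (median log2 fold change -0.33). All 13471 genes had 120 and 10661. The labelled control had 2 and 56 (-0.31), compared with 112 and 9515 of all genes. The labelled cKO had 1 and 60 (-0.38), compared with 107 and 8124. The median difference of the subunit genes between genotypes after saline was 0.070, next to 0.052 for all genes. The fall follows the shift of all genes to -0.34, and on that scale 7 of the 23 genes called higher kept their sign. Among those that turned were Ndufs8 (-0.066), Sdha (-0.29), Atp5d (-0.13), Cox8a (-0.21), Atp5g1 (-0.25), Atp5g2 (-0.18), Uqcrq (-0.18) and Uqcr11 (-0.076). With a fold change minimum of 0.5, the counts higher and lower were 2 and 2 averaged, 3 and 1 in the labelled control and 3 and 0 in the labelled cKO. With the trends of length and GC content removed, the labelled control had 7 called lower (median 0.11) and the labelled cKO 7 called higher (median -0.043). Of all 13333 genes in that setting, 1504 were called higher and 893 lower in the labelled control, and 543 higher and 525 lower in the labelled cKO. The medians of the subunit genes were 0.084 between genotypes after saline and -0.15 for the interaction, next to 0.011 and -0.025 for all genes. With genotypes from the tags, the same medians of the subunit genes were -0.032 and -0.016, next to 0.00094 and -0.0023 for all genes. The causes of the changes other than the shift of all genes were not tested.

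Without 1 library in turn, 18 to 30 genes were called higher and 16 to 21 lower in the averaged contrast (median 0.018 to 0.064), 18 to 27 and 10 to 12 in the labelled control (0.039 to 0.092), and 6 to 14 and 3 to 18 in the labelled cKO (-0.038 to 0.057), where the lowest counts came without labelled cKO cocaine 2. A lone remaining labelled cKO cocaine library is assumed to vary like the other groups. The interaction had 0 to 1 called lower, the 1 without control saline 1.

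The replicate numbers did not pair the libraries: deviations of 18 same-numbered pairs had a mean correlation of -0.014, next to 0.0046 for 54 other pairs. With a replicate block, 21 genes were called higher and 19 lower in the averaged contrast, 20 and 12 in the labelled control and 12 and 16 in the labelled cKO. Of 760 recalculated values of the called genes that the naming rule selects, 706 kept their direction and their side of the threshold, 46 lost the call and 8 changed sign, all 8 with TPM as deposited. TPM carry no depth, so the precision of genes at a few TPM, such as Cox8b, cannot be given.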
